A study of Mus musculus with 3 samples.

Results

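Retinoid metabolism genes were followed across the fibroblasts of the mouse lung at postnatal day 7. The set holds 9 of the 31730 genes of the count table and was chosen by symbol: the carrier gene Rbp4, the binding protein gene Crabp1, the alcohol dehydrogenase genes Adh1 and Adh7, the retinal dehydrogenase genes Aldh1a1, Aldh1a2 and Aldh1a3, the receptor gene Rarb and the degrading enzyme gene Cyp26b1. All 9 were found in the table. Cells came from Fgf18CreERT2/+; ROSATDTomato/+; PdgfrαEGFP/+ pups given tamoxifen from postnatal day 2 to day 5, so that every group compared here carries the same 3 alleles and had the same treatment. Sorting by the 2 reporters gave a GFP-low TdT-neg library (1284 cells), a GFP-high TdT-neg library (3347 cells) and a GFP-high TdT-high library (1511 cells). GFP reports the Pdgfra locus, and tdTomato marks cells, and their descendants, in which Cre driven from the Fgf18 locus was active under tamoxifen. The gates are therefore defined by reporters and not by cell type, and the number of pups behind a library was not given in the sources used here.

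Retinol travels in blood bound to the carrier RBP4 and is held inside cells by cellular binding proteins. Alcohol and short-chain dehydrogenases oxidise it to retinal, retinal dehydrogenases (the ALDH1A enzymes) make retinoic acid from retinal in a step that is not reversed, and CYP26 enzymes break retinoic acid down. Retinoic acid acts through nuclear receptors, the RARs paired with RXRs, on DNA elements built from repeated hexamers, and Rarb is a textbook target of its own ligand. In the lung, retinoic acid is known for roles in early lung budding and in the formation of alveolar septa, and lipid-laden interstitial fibroblasts are known to store retinoids.

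The cell types are those named in the deposited annotation, with its abbreviations. Levels are in unique molecular identifiers (UMIs), each standing for 1 captured RNA molecule, summed over the cells of a type in a library and given as counts per 1e6 UMIs (CPM). A range in parentheses after a level or a ratio is its exact 95% interval, which covers counting error only. Each gate has 1 library, so cells of a gate were not replicated, tests could not be run and the differences below have not been checked across animals or sorts. Libraries held 26586489, 68692834 and 34506226 UMIs in the order above, with medians of 19798.5, 19629 and 22401 UMIs per cell. Of the groups of 1 type in 1 library, 14 have at least 50 cells and are described, and smaller groups are given as counts. A count of 0 allows up to 3 counts. The libraries share 4 cell barcodes. The annotation's cluster column repeats the gate, so that levels by cluster are levels by library. Marker genes fit the type names in the main: summed alveolar fibroblast markers lay at 16205 and 17394 CPM in MatFB-Type 1 and MatFB-Type 2 and at 109 to 775 CPM in MyoFB types, and summed adventitial markers at 5437 and 10543 CPM in AdvFB of the GFP-low and GFP-high TdT-neg libraries. The exceptions were MatFB-Im,Cuff, whose alveolar markers summed to 11653 CPM in GFP-low but 4949 CPM in GFP-high TdT-neg cells, and GFP-low AdvFB, of which 48 of 148 cells were contractile (below). As these are sums over sorted cells, fewer expressing cells and less RNA per cell cannot be told apart from a sum, and shares of cells are given beside it.

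Rarb was the single gene of the set whose promoter window held a direct repeat of the hexamers AGGTCA or GGGTCA or AGTTCA or GGTTCA with a spacer of 5 bases, searched on both strands. Its sequence is shown because Rarb is the member with the highest levels in MyoFB-Int and MyoFB-Ter of both GFP-high libraries, described further down. It covers the 250 bases before a RefSeq start of Rarb, which lies inside the longer GENCODE gene given further down, at chr14:16575477-16575726, minus strand, from RefSeq on GRCm38.p6, with both hexamers of the repeat in capitals.
Rarb promoter: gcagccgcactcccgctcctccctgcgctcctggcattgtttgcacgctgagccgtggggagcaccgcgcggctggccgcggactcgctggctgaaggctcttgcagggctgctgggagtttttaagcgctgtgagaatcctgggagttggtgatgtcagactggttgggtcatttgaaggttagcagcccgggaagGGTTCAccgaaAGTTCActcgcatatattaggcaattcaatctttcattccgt
The repeat, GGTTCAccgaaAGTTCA, lies at chr14:16575513-16575529, 53 to 37 bases before the start. Of 32851 promoter windows of the same length, 32 (0.0974%) hold such a repeat. Repeats with a spacer of 1 base (0.222% of windows) or 2 bases (0.268%) were found in 0 member windows. Of the set, 8 genes with 10 windows had an entry, and Aldh1a3 had none. A match is a description of the sequence and no evidence that a receptor binds there.

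The members differed in the types that held their highest levels, and some members shared a type. The retinal dehydrogenases divided between types: Aldh1a1 was highest in MatFB-Type 1, and Aldh1a2 and Aldh1a3 were highest in AdvFB. Adh1 was high in all MatFB groups and lower in AdvFB, Adh7 was nearly limited to MatFB-Im,Cuff, Crabp1 to GFP-low MatFB cells, and Rarb was highest in MyoFB-Ter. Cyp26b1 stayed below 10 CPM in all 14 groups. In the GFP-low library AdvFB held 99.0% of the Aldh1a2 UMIs, and in the GFP-high TdT-neg library 94.8%. MatFB types held 95.1% of the Adh1 UMIs of the GFP-low library, while AdvFB (41.6%), MatFB (46.1%) and MyoFB (11.5%) shared those of the GFP-high TdT-neg library. Rarb UMIs came from MyoFB types for 56.5%, 90.2% and 97.9% in the GFP-low, GFP-high TdT-neg and GFP-high TdT-high libraries.

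**Figure D1:**
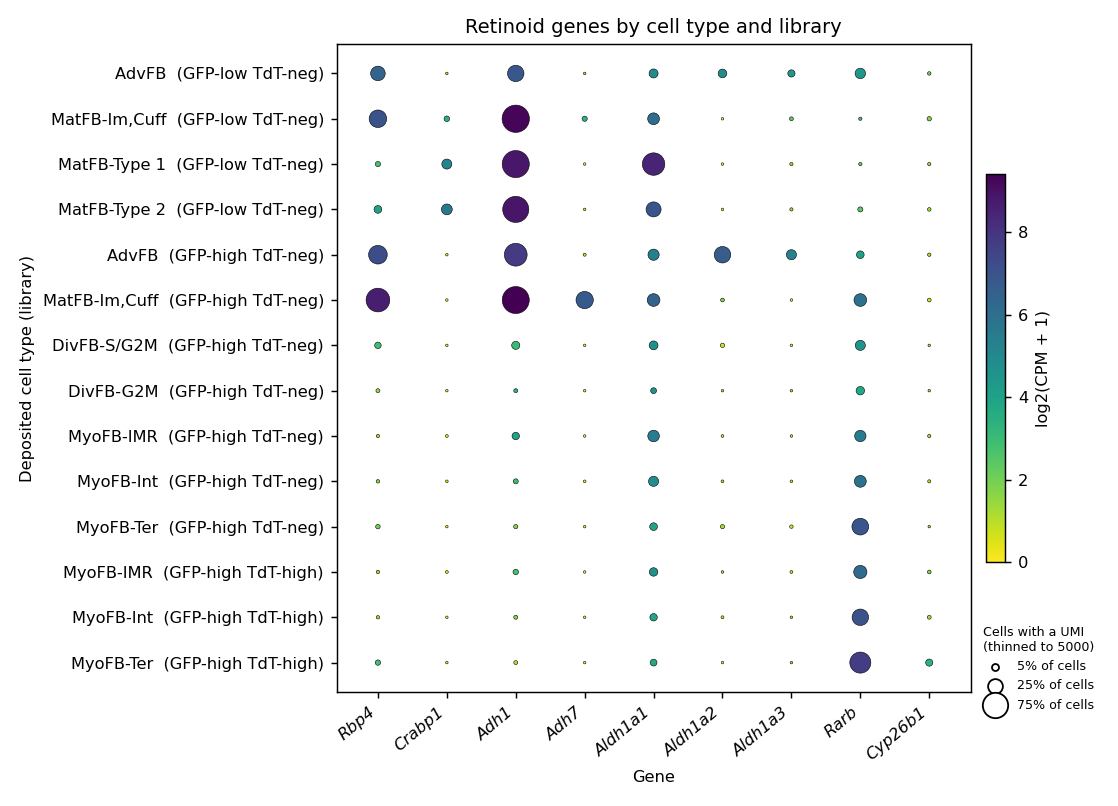
Level of the 9 retinoid genes (columns) in the 14 groups of cell type and library with at least 50 cells (rows). Colour is log2(CPM + 1), and dot area grows with the percent of cells with a UMI after each cell was thinned to 5000 UMIs. Aldh1a2 and Aldh1a3 mark the AdvFB rows, Adh7 the MatFB-Im,Cuff row of the GFP-high TdT-neg library (110 CPM) and Rarb the MyoFB rows, with its highest level in GFP-high TdT-high MyoFB-Ter (211 CPM).

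**Figure D2:**
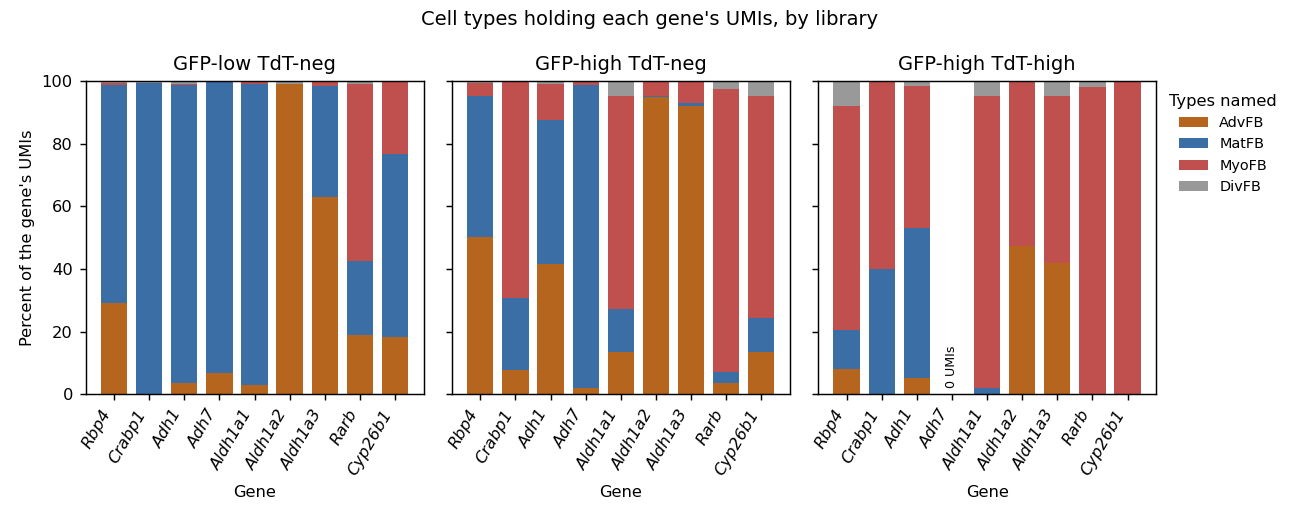
Percent of each gene's UMIs (y axis, 0 to 100) that lie in AdvFB, DivFB, MatFB and MyoFB types, as stacked bars per gene (x axis) in each of the 3 libraries. AdvFB held 94.8% of the Aldh1a2 UMIs in the GFP-high TdT-neg library, and Adh7 had 0 UMIs in the GFP-high TdT-high library.

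A level over all cells of a library also depends on the mix of types, which differs between the gates. A gene is counted as higher or lower from 2-fold, among genes with at least 10 UMIs in either group. In GFP-high TdT-neg over GFP-low TdT-neg cells 3 of 9 members were higher (Adh7, Aldh1a2 and Rarb), beside 15.2% of all 23380 genes tested, and 3 were lower (Crabp1, Adh1 and Aldh1a1), beside 11.3%. Aldh1a2 stood at 12.9 against 3.91 CPM (3.30-fold higher, 2.69 to 4.08) and Rarb at 51.0 against 14.5 CPM (3.51-fold, 3.16 to 3.91). Adh1 was 6.64-fold lower (63.3 against 420 CPM), and Crabp1 162-fold lower (94.3 to 306), with 13 against 816 UMIs. Scaling by TMM or by median-of-ratios moved every ratio of this comparison by -0.12 on the log2 scale. Adh7 (2.04-fold, 1.48 to 2.87) then fell short of 2-fold and Cyp26b1 (1.89-fold lower, 1.33 to 2.67) passed it, which made the split 2 higher and 4 lower.

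In GFP-high TdT-high over GFP-high TdT-neg cells 2 of 9 members were higher, Rarb (118 against 51.0 CPM, 2.32-fold, 2.22 to 2.43) and Cyp26b1 (2.49 against 1.19 CPM, 2.09-fold, 1.52 to 2.86), beside 4.49% of 23169 genes. The 6 lower members, beside 6.25% of genes, were Rbp4 (14.1-fold, 11.4 to 17.6), Aldh1a2 (11.7-fold, 8.47 to 16.7), Adh1 (9.33-fold, 8.18 to 10.7), Aldh1a3 (3.88-fold), Aldh1a1 (2.13-fold) and Adh7. Adh7 had 0 UMIs in the 1511 GFP-high TdT-high cells, which allows up to 0.0869 CPM and makes it at least 39.7-fold lower. Types moved with these ratios: AdvFB made up 328 of 3347 GFP-high TdT-neg cells but 4 of 1511 GFP-high TdT-high cells. Those 4 cells held 47.4% of the Aldh1a2 UMIs of their library and 41.9% of its Aldh1a3 UMIs. Which part of each ratio came from the mix of types was not tested, and ratios within a type are given below.

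Rbp4, which encodes the carrier of retinol in blood (chr19:38116629-38125281, minus strand, GRCm38), was highest in MatFB-Im,Cuff and AdvFB. Its level was 393 CPM (366 to 420) in GFP-high TdT-neg MatFB-Im,Cuff, 149 CPM (141 to 158) in GFP-high TdT-neg AdvFB, 127 CPM (117 to 139) in GFP-low MatFB-Im,Cuff, 85 CPM (75.9 to 95) in GFP-low AdvFB and 14.5 CPM (12.5 to 16.7) in MatFB-Type 2. The intervals of these 5 groups do not overlap with their neighbours in that order, while the other 9 groups, between 1.28 and 6.67 CPM, overlap with their neighbours. A share of cells with a UMI was computed after each cell was thinned to 5000 UMIs, which makes depths equal. For Rbp4 it was 65.5% (55.8 to 74.3) in GFP-high TdT-neg MatFB-Im,Cuff and 40.2% in AdvFB of that library, or 92.7% and 71.3% with all UMIs. In MyoFB-IMR of that library, the group with the lowest share, it was 0.484%, or 2.33% with all UMIs. The median cell of these 3 groups held 17598.5, 24677.5 and 19460.5 UMIs. Of small groups, the 44 MatFB-Type 2 cells of the GFP-high TdT-neg library held 255 Rbp4 UMIs (287 CPM, 253 to 324), well above the 651 GFP-low cells of that name.

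Crabp1, which encodes a cytosolic protein that binds retinoic acid (chr9:54764748-54773110, plus strand), was found in GFP-low MatFB cells. It stood at 48.3 CPM (44.6 to 52.2) in MatFB-Type 2, 36.3 CPM (30.4 to 42.9) in MatFB-Type 1 and 9.72 CPM (6.97 to 13.2) in MatFB-Im,Cuff, in an order without overlap. MatFB types held 99.1% of its 816 GFP-low UMIs. In the other 11 groups it reached at most 0.543 CPM, and it was at 0 UMIs in 5 of them: GFP-high TdT-neg MatFB-Im,Cuff, both DivFB groups and both MyoFB-Ter groups. Within MatFB-Type 2 a UMI was seen in 13.1% of cells after thinning and 29.5% with all UMIs, and a cell held up to 22. In GFP-high TdT-neg AdvFB these shares were 0% and 0.305%, with 24677.5 UMIs in the median cell beside 19471, and cells without a UMI may lie below detection. The 44 MatFB-Type 2 cells of the GFP-high TdT-neg library held 3 Crabp1 UMIs among 889260. The name MatFB-Type 2 thus covered cells with unlike Rbp4 and Crabp1 levels in these libraries.

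Adh1 and Adh7 encode alcohol dehydrogenases that can oxidise retinol and lie next to each other on chromosome 3 (chr3:138260991-138290698 and chr3:138217760-138233382, both plus strand, with 27608 bases between them). Adh1 had its highest levels in MatFB-Im,Cuff, at 683 CPM (648 to 720) in the GFP-high TdT-neg and 629 CPM (605 to 653) in the GFP-low library, a ratio of 1.09 (1.02 to 1.16). MatFB-Type 2 (476 CPM, 465 to 488) and MatFB-Type 1 (462 CPM, 441 to 485) followed, also overlapping, then AdvFB with 220 CPM (210 to 230) in GFP-high TdT-neg and 114 CPM (104 to 126) in GFP-low TdT-neg cells. Nearly every MatFB cell carried it, 79.6% to 87.3% of cells after thinning and 95.2% to 98.2% with all UMIs. In MyoFB types Adh1 was low and ordered by stage, at 15.0, 6.68 and 2.26 CPM in MyoFB-IMR, MyoFB-Int and MyoFB-Ter of the GFP-high TdT-neg library and 5.66, 2.19 and 1.04 CPM in the same types of GFP-high TdT-high cells, where MyoFB-Int and MyoFB-Ter overlap. MyoFB-Ter was 6.64-fold (3.75 to 13.0) and 5.47-fold (2.03 to 20.7) below MyoFB-IMR in these libraries. In each stage the GFP-high TdT-high level was the lower, by 2.65-fold (2.01 to 3.54) in MyoFB-IMR, 3.05-fold (2.15 to 4.41) in MyoFB-Int and 2.18-fold (0.661 to 9.28, which spans 1) in MyoFB-Ter.

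Adh7 was seen almost entirely in MatFB-Im,Cuff, the type that held 95.8% of its UMIs in the GFP-high TdT-neg and 84.4% in the GFP-low library. There it stood at 110 CPM (95.8 to 125), with a UMI in 57 of 110 cells, in the GFP-high TdT-neg library, and at 9.01 CPM (6.37 to 12.4), with a UMI in 11 of 205 cells, in the GFP-low library. After thinning these shares were 34.5% (25.7 to 44.2) and 2.44% (0.797 to 5.60), with 17598.5 and 19715 UMIs in the median cell. In the 12 other groups it reached at most 0.815 CPM. The share after thinning was 0% in 10 of these 12 groups and at most 0.305%, in GFP-high TdT-neg AdvFB. Genes overlap both loci on the opposite strand, and the strand setting of the counting was not given in the sources used here. The partner of Adh7, 0610031O16Rik, reached 2.90 CPM in GFP-high TdT-neg MatFB-Im,Cuff, and that of Adh1, Gm16559, at most 21.0 CPM, in MatFB-Type 1.

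Aldh1a1, which encodes a retinal dehydrogenase found in many adult tissues (chr19:20492715-20643465, plus strand), was the member that set MatFB-Type 1 apart from MatFB-Type 2. It stood at 356 CPM (337 to 376) in MatFB-Type 1 and 119 CPM (113 to 125) in MatFB-Type 2, a ratio of 3.0 (2.79 to 3.23), in a comparison added after the levels were seen. A UMI was found in 58.8% (51.6 to 65.7) and 25.8% (22.5 to 29.3) of cells after thinning, and in 75.9% and 42.9% with all UMIs, while the median cell held 18409 and 19471 UMIs. Rbp4 was the 1 member lower by 2-fold or more in MatFB-Type 1 (2.57-fold, 1.63 to 4.25). Crabp1 was 1.33-fold lower (1.1 to 1.62), and Adh1 (1.03-fold lower, 0.976 to 1.09) did not differ beyond counting error. This gave 1 higher and 1 lower of 7 members, beside 3.43% and 9.09% of 16988 genes. The 16 MatFB-Type 1 cells of the GFP-high TdT-neg library held 140 Aldh1a1 UMIs (541 CPM, 455 to 639). Summed mesothelial markers, at 101 CPM in MatFB-Type 1 and at most 35.7 CPM in other groups, moved with Aldh1a1. That sum was Upk1b alone, with the other 6 of 7 markers (Msln, Upk3b, Lrrn4, Wt1, Muc16 and Krt19) at 0 UMIs in MatFB-Type 1. Aldh1a7, a close paralogue of Aldh1a1 whose reads can be hard to tell apart, was also highest there, at 31.4 CPM.

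Outside those types, Aldh1a1 was the retinal dehydrogenase gene with a level in every group. MatFB-Im,Cuff had 87.9 CPM (75.6 to 102) in the GFP-high TdT-neg and 67.6 CPM (59.9 to 75.9) in the GFP-low library. Myofibroblasts carried it with an order opposite to that of Rarb, at 45.7 CPM (42.8 to 48.7) in MyoFB-IMR, 27.8 CPM (25.8 to 29.8) in MyoFB-Int and 13.6 CPM (10.6 to 17.1) in MyoFB-Ter of the GFP-high TdT-neg library. In the GFP-high TdT-high library the same types had 24.1 CPM (21.3 to 27.2), 13.9 CPM (12.3 to 15.7) and 12.2 CPM (8.94 to 16.2). The level was lower in the GFP-high TdT-high library in MyoFB-IMR (1.89-fold, 1.65 to 2.18) and MyoFB-Int (2.00-fold, 1.73 to 2.31), and did not differ beyond counting error in MyoFB-Ter (1.11-fold lower, 0.761 to 1.65). MyoFB types made up most cells of both libraries and held 68.0% and 92.9% of their Aldh1a1 UMIs.

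Aldh1a2, whose enzyme makes most of the retinoic acid of the early embryo (chr9:71215789-71296243, plus strand), was a gene of AdvFB cells. It stood at 102 CPM (95.4 to 109) in the 328 GFP-high TdT-neg and 28.0 CPM (22.8 to 33.9) in the 148 GFP-low AdvFB cells. In the other 12 groups it reached at most 2.41 CPM, and it had 0 UMIs in all 3 GFP-low MatFB groups and in GFP-high TdT-high MyoFB-Ter. In MatFB-Type 2, where 0 UMIs allow up to 0.229 CPM, it was at least 122-fold lower than in AdvFB. A UMI was found in 31.4% (26.4 to 36.7) of GFP-high TdT-neg and 8.11% (4.26 to 13.7) of GFP-low AdvFB cells after thinning, or in 50.9% and 18.9% with all UMIs. The median AdvFB cell held 24677.5 and 23570 UMIs in these libraries, and MyoFB-IMR of the GFP-high TdT-neg library, at 19460.5 UMIs, had a share of 0.0969% after thinning. Mesothelium is a known site of Aldh1a2, and 0 of the 103 GFP-high TdT-neg and 0 of the 12 GFP-low AdvFB cells with an Aldh1a2 UMI after thinning held a UMI of any of 7 mesothelial markers. Mesothelial UMIs were also rare in AdvFB cells without an Aldh1a2 UMI, at 4 of 225 and 2 of 136, so these counts cannot set the cells apart. All 115 cells with Aldh1a2 held a UMI of an adventitial marker, as did 222 of 225 and 128 of 136 without. Epithelial markers were seen in 16 of 103 against 18 of 225 GFP-high TdT-neg cells, and in 1 of 12 against 9 of 136 GFP-low cells. Their source was not tested.

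Aldh1a3, another gene for a retinal dehydrogenase (chr7:66390890-66427517, minus strand), followed the same type at lower counts. Its level was 37.2 CPM (33.2 to 41.7) in GFP-high TdT-neg and 19.8 CPM (15.5 to 24.9) in GFP-low AdvFB, then 4.03 CPM (2.35 to 6.45) in GFP-low MatFB-Im,Cuff, with no overlap between these 3. All other groups had at most 1.45 CPM. In the GFP-low library MatFB types held 35.3% and AdvFB 62.9% of its 116 UMIs.

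Against MatFB-Type 2 of the same GFP-low library, AdvFB had 5 of 8 members higher, beside 14% of 17492 genes, and 3 lower, beside 17.9%. Rbp4 was 5.87-fold (4.88 to 7.06), Aldh1a3 13.7-fold (8.17 to 24.0) and Rarb 4.73-fold (3.28 to 6.83) higher. Crabp1 was 88.9-fold (24.5 to 736), Adh1 4.17-fold (3.77 to 4.61) and Aldh1a1 4.24-fold (3.47 to 5.22) lower. The ratio of Cyp26b1, 2.06-fold (0.886 to 4.56), spans 1. Against MyoFB-Int of the GFP-high TdT-neg library, AdvFB had 4 of 7 members higher, beside 12.2% of 19637 genes, and Rarb lower (3.93-fold, 3.27 to 4.76), beside 19.2%. Those 4 were Aldh1a2 (138-fold, 88.6 to 227), Aldh1a3 (112-fold, 58.0 to 246), Rbp4 (74.5-fold, 56.7 to 99.7) and Adh1 (32.9-fold, 28.3 to 38.6), while Aldh1a1 was 1.52-fold higher (1.33 to 1.73). Rdh10, a retinol dehydrogenase gene outside the set that was picked after its values were seen, stood at 31.8 CPM in these AdvFB against 51.8 CPM in MyoFB-Int.

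**Figure D3:**
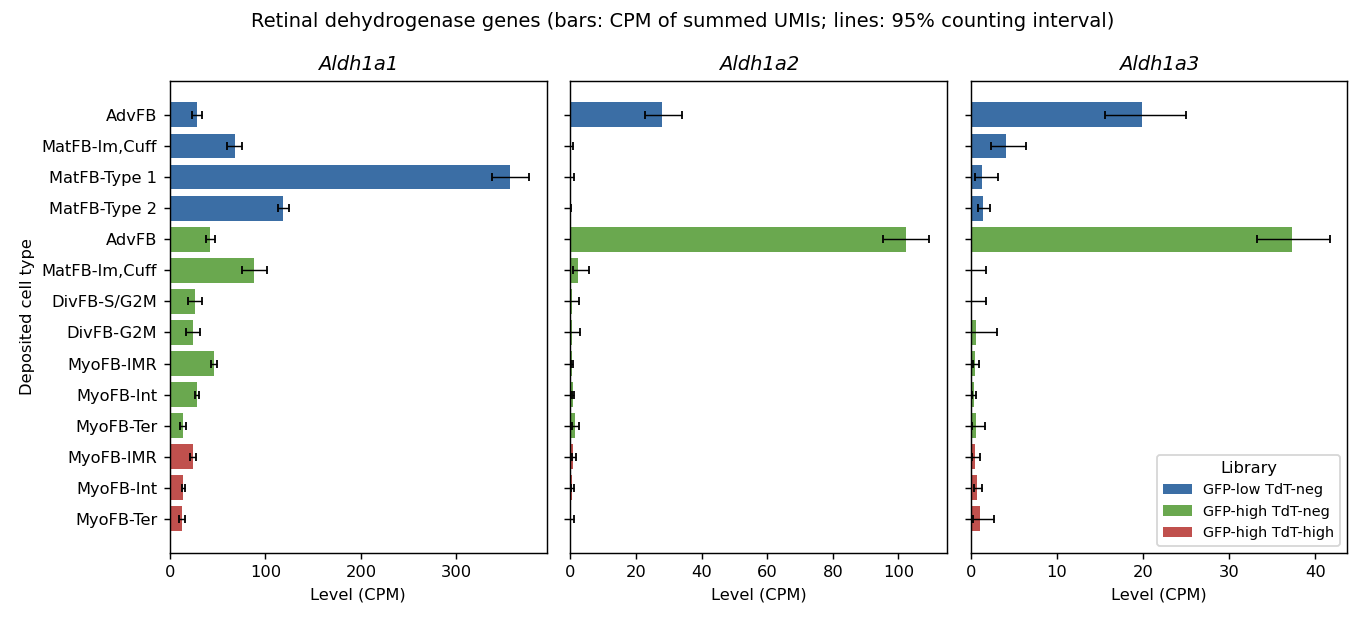
Level of Aldh1a1, Aldh1a2 and Aldh1a3 in CPM in the 14 groups of cell type and library, with exact 95% counting intervals. Aldh1a1 is highest in MatFB-Type 1 (356 CPM), and Aldh1a2 (102 CPM) and Aldh1a3 (37.2 CPM) are highest in GFP-high TdT-neg AdvFB.

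Within AdvFB, all 5 of Rbp4, Adh1, Aldh1a1, Aldh1a2 and Aldh1a3 were higher in the GFP-high TdT-neg than in the GFP-low library. Aldh1a2 alone passed 2-fold (3.65-fold, 2.97 to 4.53), beside 7.56% of 15471 genes. Adh1 (1.92-fold, 1.73 to 2.14), Aldh1a3 (1.88-fold, 1.45 to 2.46), Rbp4 (1.75-fold, 1.55 to 1.99) and Aldh1a1 (1.51-fold, 1.21 to 1.90) were closer. With TMM scaling Adh1 passed 2-fold too, for 2 higher and 1 lower. Rarb (1.31-fold lower, 0.970 to 1.77) and Cyp26b1 (2.23-fold lower, 0.878 to 5.68, and counted as lower beside 7.19% of genes) had intervals that span 1. The GFP-low AdvFB cells were of more than 1 kind: 48 of 148 had summed contractile genes above 1000 CPM, with 11528 CPM of smooth muscle markers against 128 CPM in the other 100 and 1136 against 7371 CPM of adventitial markers. Of the 328 GFP-high TdT-neg AdvFB cells 3 were above that level.

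The contractile cells carried little of most members. Adh1 stood at 2.63 CPM in them against 165 CPM in the other GFP-low AdvFB cells (62.7-fold lower, 21.3 to 305), Aldh1a2 at 1.75 against 39.8 CPM (22.7-fold lower, 6.13 to 190) and Rbp4 at 21.0 against 114 CPM (5.41-fold lower, 3.57 to 8.59). Aldh1a3 went the other way from Aldh1a2, at 22.8 against 18.5 CPM, a ratio of 1.23 (0.731 to 2.03) that spans 1, and Rarb was 1.94-fold higher (1.19 to 3.15). Without contractile cells in either library, Aldh1a2 was still higher in GFP-high TdT-neg AdvFB (2.59-fold, 2.11 to 3.22), as were Rbp4 (1.32-fold, 1.16 to 1.50), Adh1 (1.34-fold, 1.21 to 1.50) and Aldh1a3 (2.03-fold, 1.49 to 2.82). The ratio of Aldh1a1 was then 1.1 (0.875 to 1.39), and Cyp26b1 was 2.91-fold lower (1.11 to 7.56), from 11 against 10 UMIs. AdvFB was thus the source of most Aldh1a2 in both libraries, at a higher level in cells sorted as GFP-high.

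MatFB-Im,Cuff carried several members at different levels in the GFP-low and GFP-high TdT-neg libraries. In GFP-high TdT-neg over GFP-low cells 3 of 8 members were higher, beside 9.64% of 13582 genes: Adh7 (12.2-fold, 8.6 to 17.6), Rarb (10.7-fold, 6.87 to 17.3) and Rbp4 (3.08-fold, 2.76 to 3.45). Lower, beside 9.36% of genes, were Crabp1 (at least 6.71-fold, from 41 UMIs against 0), Aldh1a3 (at least 2.78-fold, from 17 UMIs against 0) and Cyp26b1 (4.91-fold, 0.698 to 213, which spans 1). In both directions together 6 of 8 members passed 2-fold, beside 19% of all genes. Adh1 (1.09-fold, 1.02 to 1.16) and Aldh1a1 (1.30-fold, 1.07 to 1.57) were near even. Alveolar and adventitial markers moved with these ratios. Per cell the alveolar sum had a median of 11155 CPM in the GFP-low library and 4560 CPM in the other, and adventitial markers summed to 685 and 1959 CPM, with Ly6a, Dpp4 and Ly6c1 at 0 in both.

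A split of this type at 8000 CPM of alveolar markers was made after these values were seen. It is a cut through a range, with 23 of 205 GFP-low and 9 of 110 GFP-high TdT-neg cells within 10% of it. Within the GFP-low library, the 48 cells below it had 288 CPM (255 to 324) of Rbp4, 37.1 CPM (26.0 to 51.3) of Adh7 and 18.5 CPM (11 to 29.3) of Rarb, with 0 UMIs of Crabp1. The 157 cells above it had 79.1, 0.616 and 1.85 CPM of those 3 genes and 12.6 CPM of Crabp1. Aldh1a1 went with the alveolar markers, at 7.21 CPM below and 85.6 CPM above (11.9-fold, 5.69 to 29.8). Adh1 was high on both sides, at 567 and 647 CPM. In Rbp4, Adh7, Rarb and Crabp1, GFP-low cells below the cut were thus nearer to the GFP-high TdT-neg cells of the type than those above it were, and in Aldh1a1 they were not.

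Among cells below the cut, 104 GFP-high TdT-neg and 48 GFP-low, Rbp4 differed by 1.41-fold (1.23 to 1.62), Adh7 by 2.93-fold (2.05 to 4.30) and Rarb by 3.43-fold (2.08 to 5.97), all higher in the GFP-high TdT-neg library. Aldh1a1 was 12.5-fold higher there (5.95 to 31.6), at 90.2 against 7.21 CPM. A split by Adh7 itself is no second support, as 36 Adh7 UMIs of the GFP-low cells lay below the cut and 2 above it. The 11 GFP-low cells with an Adh7 UMI had 416 CPM of Rbp4 and 63.7 CPM of Rarb. The 194 without had 108 and 1.77 CPM. In the GFP-high TdT-neg library the 57 cells with and 53 without an Adh7 UMI had 390 and 395 CPM of Rbp4 and 76.7 and 44.3 CPM of Rarb.

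**Figure D4:**
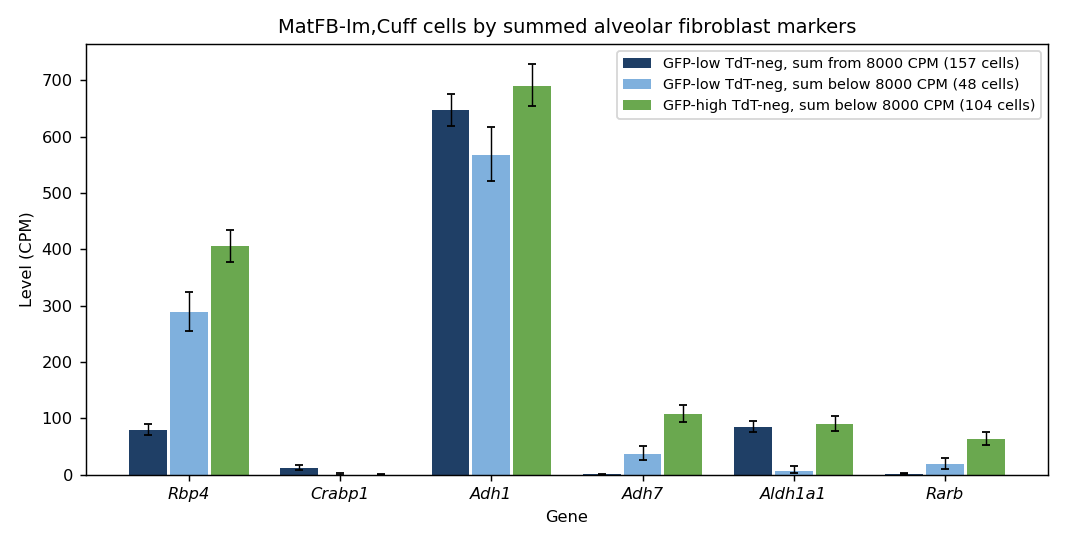
Level in CPM of retinoid genes in MatFB-Im,Cuff cells, with exact 95% counting intervals. GFP-low TdT-neg cells are split at 8000 CPM of summed alveolar fibroblast markers. Of the GFP-high TdT-neg library, only cells below that cut are shown. Cells below the cut have more Rbp4, Adh7 and Rarb than GFP-low cells from 8000 CPM, and Aldh1a1 is low (7.21 CPM) in the GFP-low cells below it.

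Within the GFP-low library, MatFB-Type 2 differed from MatFB-Im,Cuff by 1 higher and 3 lower of 8 members, beside 9.29% and 5.41% of 17068 genes. Crabp1 was 4.97-fold higher (3.62 to 6.99), and Rbp4 (8.78-fold, 7.43 to 10.4), Adh7 (29.5-fold, 10.6 to 114) and Aldh1a3 (2.78-fold, 1.36 to 5.65) were lower. Aldh1a1 was 1.75-fold higher (1.55 to 2.00) and Adh1 1.32-fold lower (1.26 to 1.38).

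Rarb encodes retinoic acid receptor beta, a nuclear receptor (chr14:16430839-16819156, minus strand), and its level was ordered by the named myofibroblast stages. In the GFP-high TdT-neg library it stood at 44.5 CPM (41.6 to 47.5) in MyoFB-IMR, 59.3 CPM (56.4 to 62.3) in MyoFB-Int and 123.4 CPM (114 to 133) in MyoFB-Ter. Levels in the GFP-high TdT-high library were 72.4 CPM (67.5 to 77.6), 131 CPM (126 to 136) and 211 CPM (197 to 226). MyoFB-Ter over MyoFB-IMR was thus 2.77-fold (2.50 to 3.07) and 2.91-fold (2.64 to 3.21), with intervals that overlap. The 21, 22 and 23 GFP-low cells of these names, too few for a group, had the same order, with 31, 61 and 126 UMIs (62.2, 118 and 263 CPM). In order of level over all groups, GFP-high TdT-high MyoFB-Int and GFP-high TdT-neg MyoFB-Ter overlapped, and GFP-high TdT-neg MatFB-Im,Cuff (60.8 CPM, 50.7 to 72.4) overlapped with both MyoFB-Int of its library and GFP-high TdT-high MyoFB-IMR. AdvFB (19.8 and 15.1 CPM in GFP-low and GFP-high TdT-neg cells) and dividing cells (12.6 and 22.9 CPM) were lower, and the GFP-low MatFB groups lowest, at 3.22 to 5.69 CPM.

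At each stage Rarb was higher in the GFP-high TdT-high library: 1.63-fold (1.48 to 1.79) in MyoFB-IMR, 2.21-fold (2.07 to 2.35) in MyoFB-Int and 1.71-fold (1.54 to 1.90) in MyoFB-Ter. Shares of cells had the same order, at 14.4%, 15.8% and 32.3% of GFP-high TdT-neg and 19.7%, 31.2% and 51.6% of GFP-high TdT-high cells after thinning, or 30.8%, 31.5% and 51.8% against 40.5%, 52.9% and 74.2% with all UMIs. In MatFB-Im,Cuff of the GFP-low library the thinned share was 0.488%, with 19715 UMIs in the median cell beside 16669 to 23762 in these 6 groups. Summed myofibroblast markers rank the stages in the same order, at 4694, 6542 and 8494 CPM in GFP-high TdT-neg cells against 4377, 6955 and 14186 CPM in the TdT-high gate. Cells named MyoFB-Ter differ in Pdgfra, and Rarb stood at 212 CPM in the 46 with and 210 CPM in the 144 without a Pdgfra UMI in the GFP-high TdT-high library (1.01-fold, 0.857 to 1.18). In the GFP-high TdT-neg library these levels were 125 and 116 CPM in 251 and 52 cells (1.07-fold, 0.863 to 1.35). Top2b, on the opposite strand, overlaps the last 4624 bases of Rarb, and its level spanned 107 to 192 CPM over the 14 groups.

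Cyp26b1, whose enzyme breaks down retinoic acid (chr6:84571414-84593908, minus strand), was rare. GFP-high TdT-high MyoFB-Ter had 37 UMIs, 9.58 CPM (6.74 to 13.2), against 7 UMIs, 1.32 CPM (0.530 to 2.72), in GFP-high TdT-neg MyoFB-Ter. The ratio was 7.27-fold (3.20 to 19.3), and within the GFP-high TdT-high library MyoFB-Ter was 4.56-fold above MyoFB-IMR (2.64 to 8.04). Among 190 GFP-high TdT-high MyoFB-Ter cells 26 held a UMI, or 5.26% (2.55 to 9.47) after thinning. Of 303 GFP-high TdT-neg MyoFB-Ter cells 6 had one, and 0 after thinning, with 16669 UMIs in the median cell beside 19853. Cells without a Pdgfra UMI made up 144 of these 190 cells but 52 of the 303. Among cells with a Pdgfra UMI Cyp26b1 stood at 7.84 against 0.891 CPM, from 8 and 4 UMIs (8.80-fold higher in the GFP-high TdT-high library, 2.36 to 40.0). Among cells without one it stood at 10.2 against 3.67 CPM, from 29 and 3 UMIs (2.78-fold, 0.863 to 14.3, which spans 1). The other 13 groups, between 0.483 and 2.99 CPM, overlap with their neighbours in order. The 23 GFP-low MyoFB-Ter cells held 12 UMIs in 6 cells (25.1 CPM, 13.0 to 43.8).

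By count, MyoFB-Ter over MyoFB-IMR had 3 higher and 2 lower of 7 members in the GFP-high TdT-neg library, beside 4.63% and 13.9% of 19021 genes, and 3 higher and 1 lower of 6 in the GFP-high TdT-high library, beside 6.74% and 16.6% of 17577 genes. Beside Rarb, Rbp4 was higher in both (2.42-fold, 1.24 to 4.60, and 4.66-fold, 2.30 to 9.79), though at no more than 5.95 CPM. The third higher member in the GFP-high TdT-neg library was Aldh1a2, at 1.32 CPM (0.530 to 2.72) against 0.491 CPM (0.235 to 0.902), which overlap. In the GFP-high TdT-high library Aldh1a2 stood at 0 against 0.913 CPM, and the third higher member was Cyp26b1. Aldh1a1 was lower, by 3.37-fold (2.65 to 4.34) and 1.98-fold (1.45 to 2.76). Between the GFP-high libraries, MyoFB-IMR had 0 higher and 1 lower of 7 members (3.64% and 2.62% of 19162 genes, 6.26% together), MyoFB-Int 2 higher and 1 lower of 7 (5.05% and 3.8% of 19524 genes, 8.85% together) and MyoFB-Ter 1 higher and 1 lower of 5 (6.88% and 6.82% of 14572 genes). The second higher member in MyoFB-Int was Aldh1a3 (2.30-fold, 0.926 to 6.02), which spans 1.

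**Figure D5:**
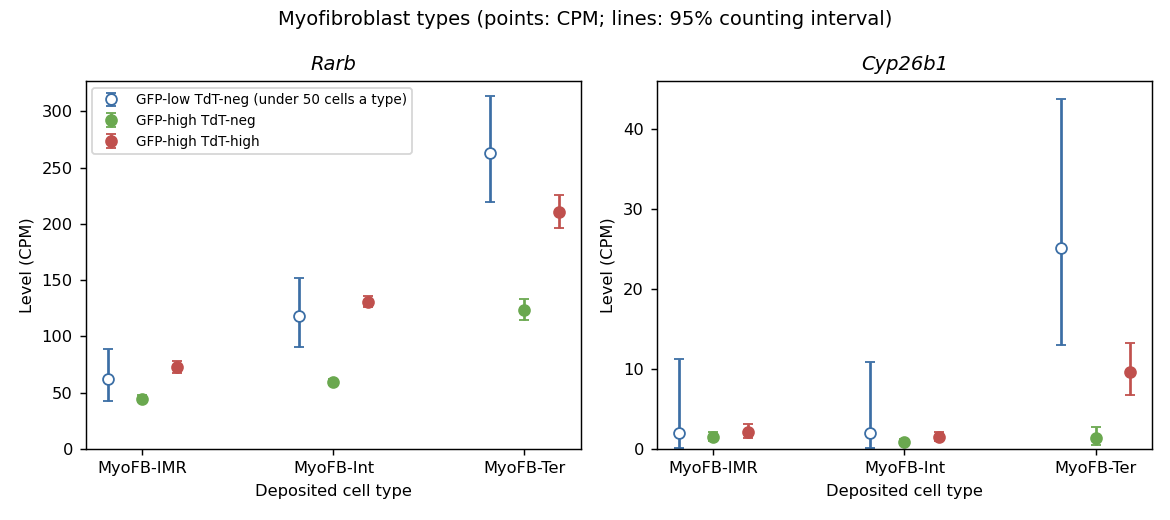
Level of Rarb and Cyp26b1 in CPM, each axis from 0, in MyoFB-IMR, MyoFB-Int and MyoFB-Ter of each library, with exact 95% counting intervals. Filled points are the GFP-high TdT-neg and GFP-high TdT-high libraries. Open points are the GFP-low TdT-neg cells of these names, too few for a group. Rarb climbs from 44.5 to 123.4 CPM (GFP-high TdT-neg) and from 72.4 to 211 CPM (GFP-high TdT-high) along the named stages. Among the filled points, Cyp26b1 is highest in GFP-high TdT-high MyoFB-Ter at 9.58 CPM. The open point of GFP-low MyoFB-Ter, from 23 cells, lies higher.

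Cells with UMIs of 2 members were counted after thinning, as a description, beside the number that the product of both shares gives. In GFP-high TdT-neg AdvFB 51 cells held both Rbp4 and Aldh1a2 (product 41.5), and 71 held both Adh1 and Aldh1a2 (product 62.2). Aldh1a2 and Aldh1a3 were found together in 14 cells of 103 and 37 with either gene (product 11.6). In MatFB-Type 1 100 cells held both Adh1 and Aldh1a1 (product 101), and in MatFB-Type 2 124 did (product 134). Crabp1 and Adh1 were together in 13 MatFB-Type 1 cells (product 18.9) and 66 MatFB-Type 2 cells (product 67.6). Rbp4 and Aldh1a1 were together in 5 MatFB-Type 2 cells (product 10.6) and 7 GFP-low MatFB-Im,Cuff cells (product 11.4). In the GFP-high TdT-neg library 14 AdvFB cells (product 18.5) and 17 MatFB-Im,Cuff cells (product 13.1) held that pair. Not all pairs are given. Both Aldh1a1 and Rarb were held by 15 cells of GFP-high TdT-neg MyoFB-IMR (product 22.4) and 22 of MyoFB-Int (product 23.7). In the GFP-high TdT-high library 6 MyoFB-IMR cells (product 7.09) and 13 MyoFB-Int cells (product 14.4) did.

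Of 61 other genes of retinoid handling and response, listed with earlier results known, 59 are in the table. Ces1d and Lrat were highest in GFP-low MatFB. Ces1d, a carboxylesterase gene, reached 209 CPM in MatFB-Type 2 and 143 CPM in MatFB-Type 1, and at most 2.41 CPM outside GFP-low MatFB. Lrat, which esterifies retinol for storage and was picked after its values were seen, was highest in GFP-low MatFB-Im,Cuff, at 30.6 CPM against 7.25 and 4.81 CPM in MatFB-Type 1 and MatFB-Type 2. Lpl, a lipase gene, marked AdvFB of the GFP-low (124 CPM) and GFP-high TdT-neg (444 CPM) libraries, against at most 58.1 CPM elsewhere. Cyp1b1, an enzyme gene likewise picked after its values were seen, stood at 28.0 and 62.5 CPM in these AdvFB groups.

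Receptor partners varied less than Rarb. Rara, Rarg and Rxra, picked after their values were seen, lay at 23.6 to 43.5, 17.6 to 53.1 and 16.6 to 34.9 CPM over the 14 groups, and the corepressor gene Ncor1 at 249 to 339 CPM. Nrip1, a corepressor gene too, lay at 114 to 252 CPM. Among genes known to respond to retinoic acid, Tgm2 (transglutaminase) was highest in MatFB-Type 1 at 197 CPM and lay at 1.34 to 5.70 CPM in MyoFB groups. Tbx5 had the opposite order to Rarb along the stages, at 327, 225 and 190 CPM in GFP-high TdT-neg and 296, 204 and 145 CPM in GFP-high TdT-high MyoFB-IMR, MyoFB-Int and MyoFB-Ter. Hoxb5 lay at 80.0 to 95 CPM in MyoFB groups and at 29.9 to 47.9 CPM in AdvFB and MatFB groups. Nr2f2 (132 to 559 CPM), Meis1 (280 to 554 CPM), Meis2 (58.3 to 226 CPM) and Rarres2 (232 to 455 CPM) were present in all groups.

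Over all cells, 8 of 54 listed genes (14.8%, beside 15.2% of all genes) were higher and 7 (13%, beside 11.3%) lower in GFP-high TdT-neg over GFP-low cells. In GFP-high TdT-high over GFP-high TdT-neg cells 2 were higher (3.7%, beside 4.49%) and 9 lower (16.7%, beside 6.25%). Against MatFB-Type 2, AdvFB had 9 of 44 higher (20.5%, beside 14%) and 11 lower (25%, beside 17.9%). Against MyoFB-Int it had 8 of 47 higher (17%, beside 12.2%) and 8 lower (17%, beside 19.2%). MatFB-Type 2 had 3 of 43 higher (6.98%, beside 9.29%) and 2 lower (4.65%, beside 5.41%) against MatFB-Im,Cuff, and MatFB-Type 1 had 0 of 43 higher (beside 3.43%) and 1 lower (2.33%, beside 9.09%) against MatFB-Type 2. Along the stages, MyoFB-Ter over MyoFB-IMR had 1 of 48 higher (2.08%, beside 4.63%) and 6 lower (12.5%, beside 13.9%) in the GFP-high TdT-neg library. In the GFP-high TdT-high library 3 of 46 were higher (6.52%, beside 6.74%) and 10 lower (21.7%, beside 16.6%).

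Between the GFP-high TdT-high and GFP-high TdT-neg libraries, MyoFB-IMR had 3 of 49 listed genes higher (6.12%, beside 3.64%) and 0 lower (beside 2.62%), and MyoFB-Int 2 of 46 higher (4.35%, beside 5.05%) and 2 lower (4.35%, beside 3.8%). MyoFB-Ter had 2 of 40 higher, Dhrs3 and Rai14 (5%, beside 6.88%), and 4 lower (10%, beside 6.82%). Between GFP-high TdT-neg and GFP-low cells, AdvFB had 2 of 39 higher, Lpl and Cyp1b1 (5.13%, beside 7.56%), and 1 lower, Tgm2 (2.56%, beside 7.19%). MatFB-Im,Cuff had 2 of 37 higher, Rarg and Rai14 (5.41%, beside 9.64%), and 5 lower, among them Lrat and Ces1d (13.5%, beside 9.36%). Over these 13 comparisons the listed genes' median ratio lay between -0.21 and 0.22 on the log2 scale, beside -0.29 to 0.16 for all genes tested.

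Genes with the most similar pattern were found by Pearson's r of log2(CPM + 1) over the 14 groups, which share libraries and depth, among 8475 genes reaching 20 CPM in a group. For Rbp4 they were Cd55 (0.973), Igfbp6 (0.969) and Fgd5 (0.961), for Crabp1 Specc1l (0.987), Ces1d (0.977) and Mettl21e (0.977), and for Adh1 Dpep1 (0.986), Colec12 (0.982) and Atp10d (0.981). Adh7 was nearest to Faim2 (0.982), Bmp7 (0.978) and Foxd1 (0.960). Aldh1a1 was nearest to Zhx3 (0.948), Syt17 (0.944) and Cacna1d (0.943), Aldh1a2 to Uap1 (0.984), Gpr39 (0.978) and Ebf2 (0.977), and Aldh1a3 to Adgrb3 (0.944), Fabp4 (0.925) and Ptgs2 (0.924). The receptor gene Rarb was nearest to Fhod3 (0.952), Cdh4 (0.948) and Prr16 (0.936). Cyp26b1 did not reach 20 CPM in a group. These names depend on the measure, since a rank correlation shares 5 of the 24 and a pseudocount of 5 shares 12.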

How the data were processed

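The 10x Genomics 3' v3.1 kit was used on enzymatically dissociated, live-sorted lung cells, per the labels' protocols. Cell Ranger 7.0.0 and mm10 are named in the submitters' processing notes. The authors deposited raw UMI counts per gene and cell and, per cell, its gate, cell type and percent of mitochondrial UMIs. How cells were filtered, pups pooled, types called and strand or annotation set was not given in the sources used here. The deposited cells hold at least 5446 UMIs and at most 19.3% mitochondrial UMIs, and matrix sums equalled the deposited totals. A further sorted population (TDTomato+, GFP-) was not analysed here.

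All 6142 deposited cells were kept, with no doublet caller run. Counts were summed per type and library, with exact Poisson (levels), conditional binomial (ratios) and Clopper-Pearson (shares) 95% intervals. No test was run, as each gate has 1 library. A 0 was set to 3 counts for a bound. The 9 members, the pathway list, the marker lists and the comparisons were chosen with earlier results of these data known. All members were named, then the 12 pathway genes of highest level from 20 CPM, then the 3 genes of highest correlation for each member reaching 20 CPM, without sex-linked, unnamed, mitochondrial, haemoglobin and ribosomal protein genes. One item that this rule names is not reported here. Contractile cells were those with summed Acta2, Tagln, Actg2 and Myh11 above 1000 CPM. The ratio and its interval were tried on simulated Poisson counts. These follow the model of the interval itself, so the trial cannot show how it does with UMIs spread unevenly over cells. Coordinates are from GENCODE M21 on GRCm38 (mm10). Alternatives were TMM (edgeR 4.0.16) and median-of-ratios (DESeq2 1.42.0) scaling, means of cell CPM, other minima, 1.5-fold, a pseudocount of 1, cells with at most 5% mitochondrial UMIs, thinning to 5000 UMIs, reduced totals and subsets of cells. Work was done in Python 3.11.15 with numpy 2.4.6, scipy 1.17.1 and pandas 2.3.3, and in R 4.3.3.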

Additional observations from a re-analysis of the deposited data

Results flagged for a closer look

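Aldh1a3 went opposite ways between the GFP-high TdT-neg and GFP-low libraries in AdvFB and MatFB-Im,Cuff. Its log2 ratio was 0.91 in AdvFB and -1.48 in MatFB-Im,Cuff, where the GFP-high TdT-neg side had 0 UMIs and stands at the bound of 3 counts. The log2 ratios differ by 2.39, and this difference was not tested.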

How the results depend on the processing

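No paired analysis was possible because each gate has 1 library and no fit was made. The planned levels by deposited cluster number could not be run apart from those by library, because that column repeats the gate. Of 140 counts of members past 2-fold under an alternative, 116 stayed within 1.5 times and 24 moved, and all 434 called member ratios that could be computed kept their direction. Only ratios past 2-fold entered, from the same libraries, so a change of direction was unlikely from the outset. In 15 cases both groups fell to at most 3 counts and no ratio was computed, among them Aldh1a3 in MatFB-Im,Cuff between libraries on thinning and with cells below 8000 CPM of alveolar markers. Demanding 10 CPM in the higher group gave 5 in place of 8 in GFP-high TdT-high over GFP-high TdT-neg cells, 2 in place of 4 in MatFB-Type 2 over MatFB-Im,Cuff, 3 in place of 5 and 1 in place of 4 in MyoFB-Ter over MyoFB-IMR (GFP-high TdT-neg and GFP-high TdT-high), 1 in place of 2 in AdvFB, 3 in place of 6 in MatFB-Im,Cuff, 1 in place of 3 in MyoFB-Int and 0 in place of 2 in MyoFB-Ter between libraries. A pseudocount of 1 gave 3 in GFP-high TdT-neg MyoFB-Ter over MyoFB-IMR, 1 in AdvFB and 1 in MyoFB-Ter. Thinning gave 3 in GFP-high TdT-neg MyoFB-Ter over MyoFB-IMR, 3 in MatFB-Im,Cuff, 2 in place of 1 in MyoFB-IMR and 1 in MyoFB-Ter. A fold of 1.5 gave 6 in AdvFB, 4 in MyoFB-IMR, 5 in MyoFB-Int and 4 in MyoFB-Ter. No minimum gave 2 in MyoFB-IMR and 5 in MyoFB-Int, and the mean of cell CPM 4 in AdvFB. Cells below 8000 CPM of alveolar markers gave 3 in MatFB-Im,Cuff, and MyoFB-Ter cells with a Pdgfra UMI gave 0 between libraries, both chosen after seeing the data. In the latter, Cyp26b1 was at 7.84 against 0.891 CPM but had 8 and 4 UMIs, under the minimum of 10. Shares of all genes called are given above for the main rule only, so the counts under alternatives have none beside them. The cause of these moves was not tested. Median-of-ratios scaling moved ratios most in AdvFB over MyoFB-Int, by 0.28 on the log2 scale, without a change of call. The limits are the single library per gate, pooling that is not given, and low counts of Cyp26b1, Aldh1a3 and, outside their main types, Crabp1 and Adh7.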
